A study of Sus scrofa with 6 samples.

Results

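The genes described here are those of the swine leukocyte antigen (SLA) complex, which is the pig major histocompatibility complex (MHC), together with genes that help its products present antigen. Their probes were chosen by name on a pig expression array: a probe was taken when the design named it SLA-1, SLA-2, SLA-3, SLA-DRA, SLA-DRB1, SLA-DQA1, SLA-DQB1, B2M, CD74 or TAP1, when its gene name began with SLA-, or when its description spoke of MHC class I, MHC class II or a histocompatibility antigen. This gave 49 of 43603 probes, 37 through the gene name and 12 through the description. Of these, 21 belonged to class I, 23 to class II, 2 to CD74 and 2 to TAP1. The last one, MMR2, was found through the words of its description (a macrophage receptor for MHC class I) and carries the RefSeq name MFSD6. No probe bore the gene name B2M, and the 2 probes whose accession or description pointed to that gene were kept apart from the members.

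The muscles were the longissimus dorsi muscle (LDM), a glycolytic muscle, and the psoas major muscle (PMM), an oxidative one. Both were taken from female Landrace pigs, 210 days old and without feed for 24 h, and the labels name no treatment of either muscle. Each muscle was measured on 3 one-colour arrays, one per replicate number (1 to 3). The study took both muscles from the same pigs, but no label ties a replicate number to an animal, and the number also coincided with the day of scanning, so that pig and scan day cannot be told apart.

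MHC class I molecules, made of a heavy chain (SLA-1, SLA-2 and SLA-3 are the classical ones in pigs, SLA-6, SLA-7 and SLA-8 the nonclassical ones) and of beta-2 microglobulin (B2M), show peptides from inside the cell to CD8 T cells and are carried by nearly all nucleated cells. The transporter subunit TAP1 brings those peptides into the endoplasmic reticulum. MHC class II molecules, made of an alpha and a beta chain (DRA with DRB1, DQA1 with DQB1), show peptides from outside the cell to CD4 T cells and are found mainly on macrophages, dendritic cells and B cells. The invariant chain CD74 guards their groove until DMA and DMB exchange it for peptide, and in resting muscle this machinery is known mostly from the immune cells between the fibres rather than from the fibres.

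Because SLA genes are alike and vary between animals, the probes themselves are shown first. Each probe was 60 bases long. The next lines give a pair of SLA-DRB1 probes, A_72_P079096 and A_72_P246677, which shared 47 bases and differed there at 1 of them (capitals). Counted from 1 at the 5′ end of A_72_P079096, the difference was A20G.
A_72_P079096: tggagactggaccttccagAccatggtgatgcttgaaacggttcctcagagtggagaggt
A_72_P246677: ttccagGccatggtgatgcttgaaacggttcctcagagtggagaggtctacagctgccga

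The following stretches of 29 bases come from 3 overlapping SLA-1 probes, shown because their signals ordered the replicates differently. A_72_P196972 overlapped A_72_P407238 by 57 bases and A_72_P361238 by 53 bases, with the same 2 differences from both, A10T and T38C (capitals, counted from 1 at the 5′ end of A_72_P196972). The latter pair shared 50 bases without a difference.
A_72_P196972: AgtttgaaagaggaaataaatggaaggaT
A_72_P407238: TgtttgaaagaggaaataaatggaaggaC
A_72_P361238: TgtttgaaagaggaaataaatggaaggaC

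Listed RefSeq transcripts were counted only where they matched a gene in the RefSeq names used here. On this count, the array design listed 27 of the 49 probes against transcripts of 1 gene and 19 against none. The other 3 were listed against transcripts of more than 1 gene, and they are shown because their signal cannot be given to a single chain. Other probes may list further genes through transcripts that had no match. Of the probes taken as SLA-1, A_72_P262732 and A_72_P267132 each listed 2 RefSeq transcripts. The design assigned both to the same SLA-1 transcript as A_72_P119087, but the gene matched was SLA-2 for A_72_P262732 and SLA-3 for A_72_P267132. The other 9 matched no gene, though A_72_P119087, A_72_P035616, A_72_P322648 and A_72_P170061 each listed 1 transcript. Class I chain names here are thus those of the design, by gene name or description, while some class II names came from RefSeq. The SLA-2 probe A_72_P299534 listed transcripts of SLA-2 and SLA-5. The SLA-3 probe A_72_P270324 listed SLA-3, SLA-5 and SLA-2. The SLA-8 probe A_72_P237472 listed SLA-8, SLA-7 and SLA-6. The brightest CD74 probe, A_72_P395573, which listed CD74 alone, is given beside them as a probe outside the SLA family.
A_72_P299534: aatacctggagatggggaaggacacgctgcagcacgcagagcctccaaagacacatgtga
A_72_P270324: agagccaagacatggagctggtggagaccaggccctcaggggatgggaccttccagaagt
A_72_P237472: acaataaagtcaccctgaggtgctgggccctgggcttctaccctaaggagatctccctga
A_72_P395573: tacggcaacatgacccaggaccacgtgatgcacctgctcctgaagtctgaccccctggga

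All values below are log2 signals relative to the 75th percentile of the same array, so that 0 stands for the signal at that percentile. A probe was tested when it stood well above background on all 3 arrays of either muscle, which held for 25835 probes of the array. Of the members, 41 of 49 were tested: 18 of 21 for class I, 18 of 23 for class II, 2 of 2 for CD74, 2 of 2 for TAP1, and MMR2. The 8 others were an SLA-6, an SLA-7 and an unnamed class I probe, and 5 class II probes whose design names no SLA gene. Of these 5, A_72_P057166 stood well above background in LDM replicate 3 alone (-2.13) and at or below -6.76 on the other arrays. On each array, 25630 to 31707 spots exceeded the background well, with no saturated spot. Muscle marker probes were well above background for 11 of 11 genes on all arrays.

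MHC transcripts of both classes were found in both muscles, and no member probe passed the test between PMM and LDM. limma called 0 of 41 member probes at an adjusted p of 0.05, where it called 8 of 25835 probes over the array (0.031%). An unadjusted p under 0.05 was reached by 0 of 41 members and by 679 of 25835 probes over the array. The fit with the replicate number as a block also called 0 of 41, against 17 probes over the array (0.0658%). In that fit, 1 of 41 members had an unadjusted p under 0.05, beside 2857 of 25835 probes over the array. Signals of the 18 class I probes lay a median of 0.24 higher in PMM and those of the 18 class II probes a median of 0.27 higher, beside -0.04 over all probes tested. All 18 probes of each class had the higher mean in PMM, as did 11407 of 25835 probes over the array, and probes of a class share targets. The class medians were positive under each normalization tried, but they depended on single arrays. Without LDM replicate 1 they were -0.11 for class I and -0.26 for class II, without PMM replicate 3 they were -0.04 and -0.07, and without LDM replicate 3 they were 0.73 and 0.78. Leaving out PMM replicate 1 gave 0.38 and 0.53, and leaving out PMM replicate 2 gave 0.45 and 0.33. In RNA from whole muscle, here and below, fewer cells of a type and less RNA per cell cannot be told apart.

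**Figure D1:**
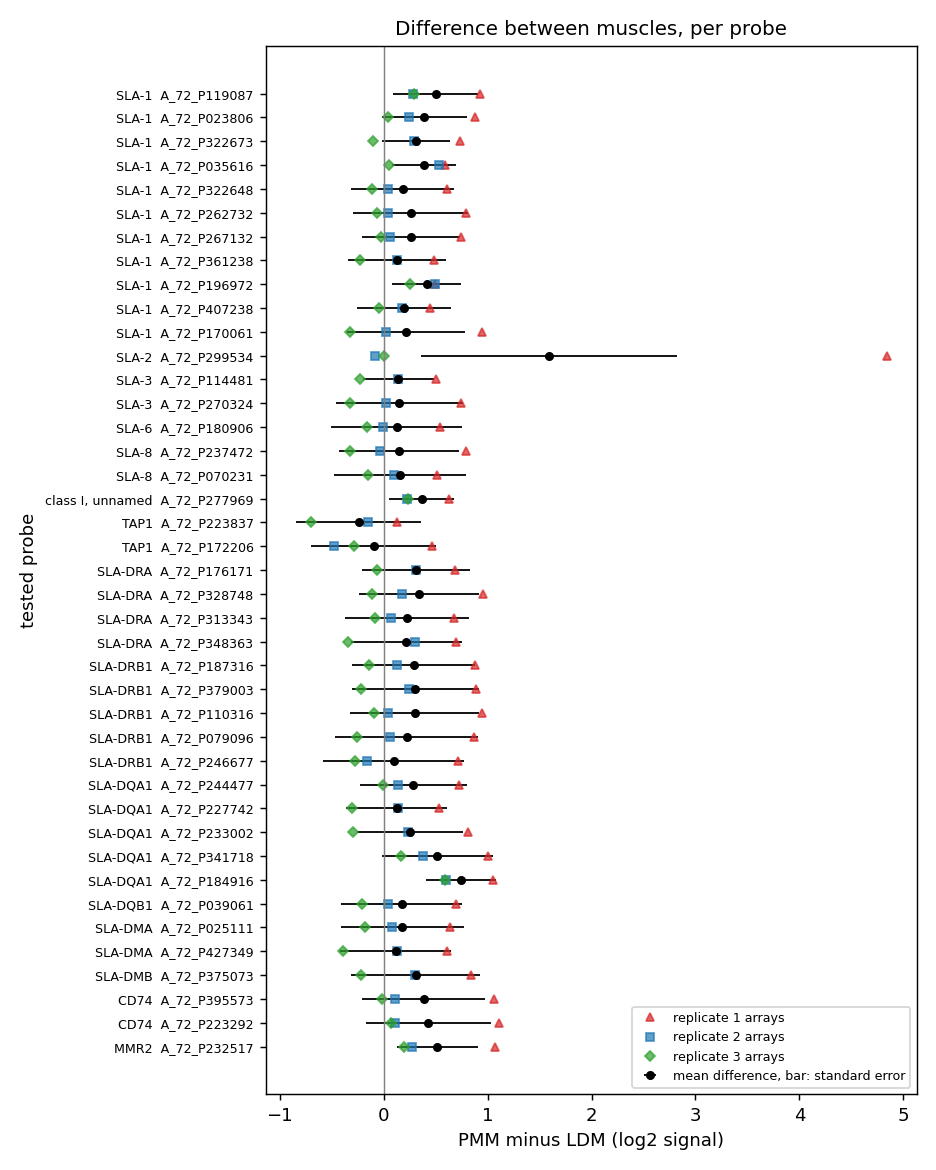
Difference between muscles for each of the 41 tested member probes, in log2 signal (x axis, PMM minus LDM), by probe (y axis). Black points give the mean difference with its standard error, and coloured points the difference between the 2 arrays with one replicate number. Replicate 1 lies to the right of replicates 2 and 3 in nearly all probes, furthest for the SLA-2 probe at 4.84.

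This small lead of PMM was found mainly between the arrays numbered 1. Between the replicate 1 arrays, the median difference was 0.68 for class I and 0.77 for class II. Between the replicate 2 arrays it was 0.11 and 0.14, and between the replicate 3 arrays it was -0.08 and -0.19. The arrays of replicate 2 shared a slide, as did those of replicate 3, so these are also the differences within a slide, while the replicate 1 arrays lay on different slides. With the slide as a random block, the medians were 0.06 for class I and 0.05 for class II, and that fit called 0 of 41 members, against 300 of 25835 probes over the array (1.16%). LDM replicate 1 was the lowest of the 6 arrays for 36 of 41 members, for 15 of 18 class I and for 18 of 18 class II probes, against 21.0% of all probes. PMM was higher in all 3 pairs for 9 of 41 members, namely 5 of 18 class I and 2 of 18 class II probes, 1 of 2 for CD74 and MMR2, where it was for 16.4% of all probes. The class II median exceeded that of class I by 0.03, and this gap turned sign without LDM replicate 1 (-0.15), PMM replicate 2 (-0.12) or PMM replicate 3 (-0.03), and with the slide as a random block (-0.016).

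Among the class I heavy chains, SLA-1 had the most probes, 11, and all were well above background on all 6 arrays. Its brightest probe, A_72_P119087, read 7.66, 8.11 and 8.93 in LDM and 8.58, 8.40 and 9.22 in PMM for replicates 1 to 3. Replicate 3 was the highest array in both muscles, and the muscles overlapped. The difference of 0.50 ± 0.41 (SE) was the second largest in class I and was not called (adjusted p = 0.99998, and 0.46 with the block). The third largest was at A_72_P196972, with 3.98, 3.43 and 4.12 in LDM and 4.48, 3.92 and 4.38 in PMM (0.41 ± 0.33, adjusted p = 0.45 with the block). Here replicate 2 was the lowest array in each muscle.

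The largest difference of all members, 1.59 ± 1.23 (SE), belonged to the one probe that the design names SLA-2 and rested on 1 array. A_72_P299534 read -0.28, 4.01 and 5.36 in LDM and 4.57, 3.93 and 5.36 in PMM. Replicates 2 and 3 had much the same signal in both muscles, whereas LDM replicate 1 lay 28.7-fold below PMM replicate 1. The value of LDM replicate 1 was not marked as an outlier by the scanner software. Without LDM replicate 1 the difference was -0.07, and the class I median without this probe was 0.21. A_72_P262732, which is named SLA-1 but also lists an SLA-2 transcript, differed by 0.26 ± 0.56.

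SLA-3 had 2 tested probes. The brighter, A_72_P114481, read 4.32, 4.76 and 5.33 in LDM and 4.83, 4.90 and 5.10 in PMM, with LDM wider than PMM and around it. The other, A_72_P270324, read 3.39, 3.23 and 5.22 in LDM and 4.14, 3.25 and 4.90 in PMM, so that replicate 3 stood above the others in both. Their differences were 0.14 ± 0.34 and 0.15 ± 0.61 (SE). The nonclassical chain SLA-6, at A_72_P180906, read 1.60, 2.31 and 3.85 in LDM and 2.14, 2.31 and 3.69 in PMM, again with replicate 3 highest in both muscles (0.13 ± 0.63). The 2 SLA-8 probes differed between muscles by 0.15 and 0.16.

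For 17 of 18 class II probes the range over replicate numbers exceeded the difference between muscles. It did so for 18 of 18 class I probes and for 90.6% of all probes. SLA-DRA, the DR alpha chain, read 4.99, 6.06 and 6.90 in LDM and 5.67, 6.37 and 6.84 in PMM at its brightest probe, A_72_P176171. The probe with its largest difference, A_72_P328748, read 4.16, 5.36 and 6.44 in LDM and 5.12, 5.54 and 6.32 in PMM. Replicate 1 was the lowest and replicate 3 the highest array in both muscles, which overlapped, with differences of 0.31 ± 0.52 and 0.34 ± 0.58 (SE).

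SLA-DRB1, the beta chain that pairs with DRA, read 5.32, 6.58 and 7.64 in LDM and 6.20, 6.71 and 7.50 in PMM at A_72_P187316 (0.29 ± 0.59, SE). The pair of overlapping SLA-DRB1 probes printed above followed it. A_72_P079096 read 2.27, 3.35 and 4.97 in LDM and 3.14, 3.41 and 4.71 in PMM, and A_72_P246677 read 2.09, 3.38 and 4.73 in LDM and 2.81, 3.23 and 4.46 in PMM. A_72_P110316 read 3.00, 4.12 and 5.41 in LDM and 3.94, 4.16 and 5.31 in PMM. In each of these 4 probes the arrays of one replicate number lay closer to each other than those of different numbers did within LDM. Within PMM this did not hold, since replicates 1 and 2 lay closer to each other than the replicate 1 arrays of the 2 muscles did. These distances were 0.27 and 0.87 at A_72_P079096, and 0.42 and 0.72 at A_72_P246677.

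SLA-DQA1, the DQ alpha chain, held the one member probe without overlap between the muscles, where 5.94% of all probes had none. At that probe, A_72_P184916, signals were -3.63, -2.78 and -3.30 in LDM and -2.58, -2.18 and -2.71 in PMM, each PMM array above each LDM array. The difference of 0.75 ± 0.34 (SE) was higher in 3 of 3 pairs (1.05, 0.60 and 0.59) but was not called, with an adjusted p of 0.99998 without a block, 0.27 with the replicate block and 0.11 with the slide as a random block. The other 4 SLA-DQA1 probes overlapped between the muscles. The brightest, A_72_P244477, read 4.84, 5.74 and 6.72 in LDM and 5.57, 5.88 and 6.72 in PMM (0.29 ± 0.52), and A_72_P341718 read 0.44, 1.54 and 2.44 in LDM and 1.45, 1.92 and 2.61 in PMM (0.52 ± 0.53), higher in PMM in 3 of 3 pairs (1.004, 0.38 and 0.17). SLA-DQB1, the DQ beta chain, read 4.64, 5.48 and 6.83 in LDM and 5.33, 5.51 and 6.62 in PMM at A_72_P039061 (0.17 ± 0.58). The peptide exchange chains SLA-DMA and SLA-DMB (3 probes) differed by 0.11 to 0.31.

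CD74, the invariant chain, was represented by 2 probes that ran together. A_72_P395573 read -0.03, 0.51 and 2.08 in LDM and 1.03, 0.62 and 2.06 in PMM, replicate 3 standing above all others in both muscles. The difference was 0.38 ± 0.59 (SE) at this probe and 0.43 at the other, with the adjusted p with the block at 0.65 and 0.61. TAP1 gave the only negative differences among the members. Its brighter probe, A_72_P223837, read -0.70, -1.25 and 0.89 in LDM and -0.57, -1.40 and 0.18 in PMM, with replicate 2 the lowest array in each muscle (-0.24 ± 0.60), and the other probe differed by -0.10. MMR2, which is no MHC gene, read -2.30, -2.12 and -1.24 in LDM and -1.23, -1.85 and -1.04 in PMM (0.52 ± 0.39).

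B2M, the light chain of class I, could be followed only through the 2 probes found by accession or description, and they did not behave alike. A_72_P278329 read 0.99, -0.24 and -0.17 in LDM and 1.02, -0.22 and 2.67 in PMM, a difference of 0.96 ± 0.69 (SE) carried by PMM replicate 3. A_72_P379693 read -2.80, -1.22 and -1.05 in LDM and -2.91, -1.44 and -0.68 in PMM, with replicate 1 lowest in both muscles and a difference of 0.01 ± 0.65. Neither was called between muscles. Between replicate numbers, A_72_P379693 was called (adjusted p = 0.028) and A_72_P278329 was not (0.25).

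**Figure D2:**
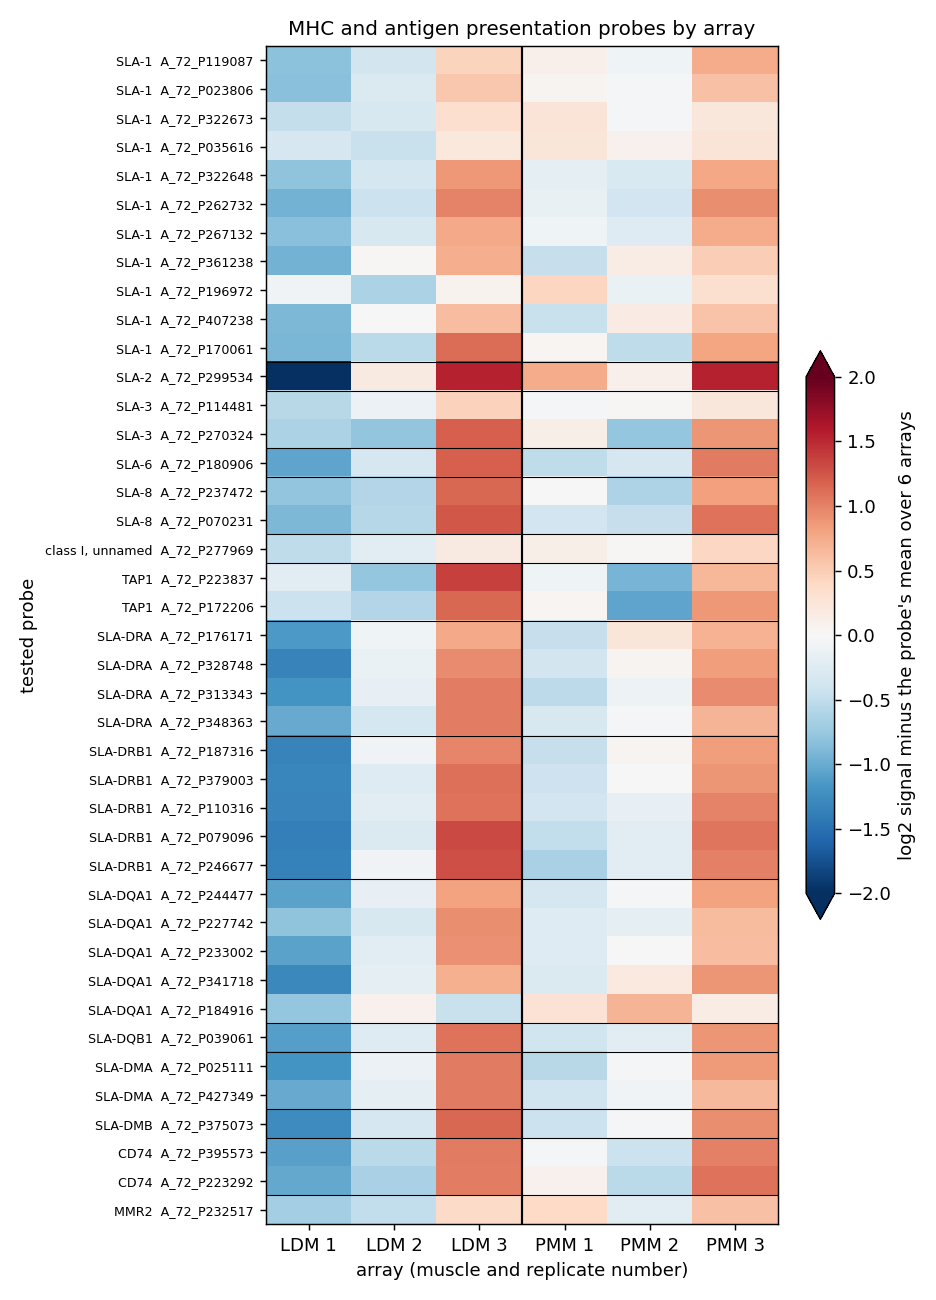
Log2 signal of the 41 tested member probes (rows) on the 6 arrays (columns), each minus the mean of that probe over the arrays (colour, red above and blue below, capped at 2). The column of replicate 3 is red in both muscles for nearly all rows, and the column of LDM replicate 1 is the bluest, with the SLA-2 probe beyond the colour scale there.

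What did vary was the level between replicate numbers, in parallel in both muscles. Replicate 3 lay above all 4 arrays of the other numbers in both muscles for 36 of 41 members, for 15 of 18 class I and 17 of 18 class II probes, against 16.2% of all probes. Class II signals were a median of 1.74 higher in replicate 3 than in replicate 1 over both muscles, which is 3.33-fold, and class I signals 1.28 higher, which is 2.43-fold, where the median of all probes was -0.04. The exception in class II was A_72_P184916, the SLA-DQA1 probe without overlap between the muscles, which read 0.10 higher in replicate 3 than in replicate 1 and lower than in replicate 2 (-0.53).

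A limma F test of the replicate numbers, with muscle in the model, called 31 of 41 members, against 6490 of 25835 probes over the array (25.1%). These were 10 of 18 class I probes, 17 of 18 class II probes, 2 of 2 for CD74 and 2 of 2 for TAP1. Adjusted p over the members ran from 0.028 to 0.35, and 0.028 was also the lowest over the array. The call depended on the background correction and on single arrays: with normexp correction 0 of 41 members were called, as were 0 probes over the array, and leaving out LDM replicate 2, LDM replicate 3, PMM replicate 2 or PMM replicate 3 also gave 0, although the class medians then stayed between 0.99 and 1.49 for class I and between 1.42 and 2.05 for class II.

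In class II, the largest differences between replicate 3 and replicate 1 were in SLA-DRB1, with 2.15 ± 0.30 (SE) at A_72_P246677, 2.13 ± 0.32 at A_72_P079096 and 1.89 ± 0.31 at A_72_P110316. These are 4.42-fold, 4.38-fold and 3.70-fold. Among the called class I probes, the nonclassical SLA-6 probe A_72_P180906 was 1.90 ± 0.25 higher in replicate 3, 3.75-fold, the SLA-8 probe A_72_P070231 1.80 ± 0.24 higher, 3.49-fold, and A_72_P262732, named SLA-1, 1.51 ± 0.28 higher. The SLA-3 probe A_72_P270324 was 1.30 ± 0.30 higher, while its replicate 2 lay below replicate 1 (-0.52), which gave it one of the widest ranges over replicate numbers in class I. CD74 was 1.57 ± 0.32 higher at A_72_P395573, 2.97-fold, and TAP1 1.17 ± 0.27 higher at A_72_P223837, 2.25-fold. The SLA-2 probe had the widest range, 3.22, but with a standard error of 1.21 it was not called (adjusted p = 0.17). The brightest SLA-1 probe, A_72_P119087, differed by 0.96 ± 0.25 (adjusted p = 0.065), and 6 of the 11 SLA-1 probes were called.

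Class I and class II did not place the lower replicates alike. Replicate 1 was the lowest array within both muscles for 17 of 18 class II probes but for 4 of 18 class I probes, against 25.5% of all probes. In LDM, replicate 2 exceeded replicate 1 for 18 of 18 class II and 15 of 18 class I probes, and for 13435 of 25835 probes over the array. In PMM, it did so for 18 of 18 class II probes, by a median of 0.39, and for only 4 of 18 class I probes, with a median of -0.17. Over the array, it did so for 13817 of 25835 probes in PMM. CD74 kept to the class I order in PMM, with replicate 2 below replicate 1 in both of its probes (median -0.52), and for TAP1 replicate 2 was the lowest in both muscles. Probes of a class share targets, and the difference between the classes was not tested.

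The excess of replicate 3 over replicate 1 was present in both muscles. In LDM it was a median of 2.21 for class II and 1.64 for class I, and in PMM 1.24 and 0.78. The excess of replicate 3 over replicate 2 was 1.21 and 0.96 in LDM and 0.82 and 0.91 in PMM. The SD within LDM exceeded that within PMM for 40 of 41 members, where it did so for 43.7% of all probes. The median SD was 0.83 in LDM and 0.52 in PMM for class I, 1.11 and 0.63 for class II, and 0.42 and 0.46 for all probes. Ranked by SD pooled over both muscles, the median class I probe stood at the 77.1 percentile and the median class II probe at the 92.5 percentile of all probes tested. For 5 of 41 members the difference between muscles exceeded the pooled SD, beside 17.7% of all probes.

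**Figure D3:**
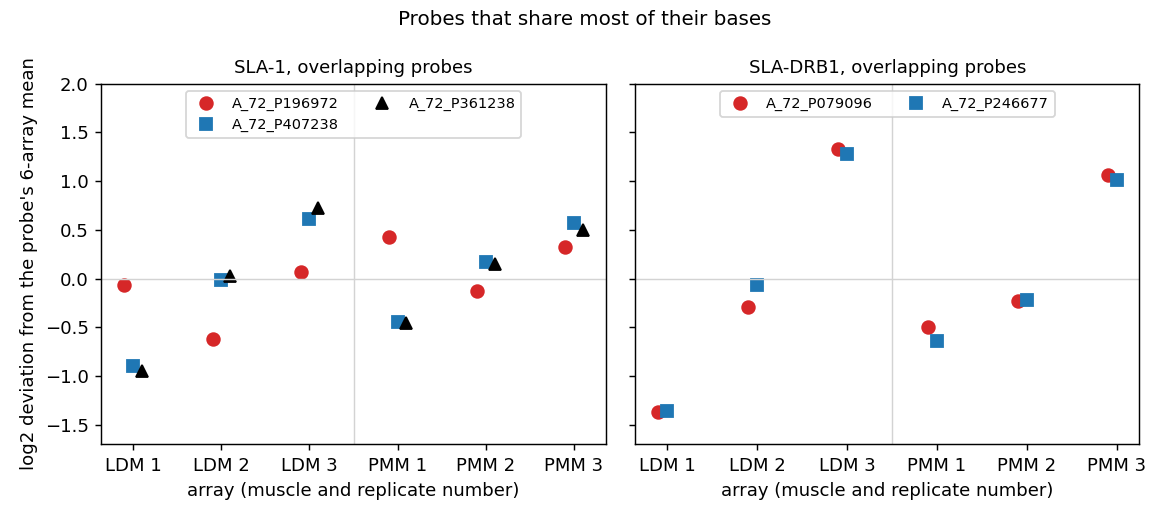
Log2 signal minus the probe's mean over 6 arrays (y axis) on each array (x axis), for 3 overlapping SLA-1 probes (left) and 2 overlapping SLA-DRB1 probes (right). In both muscles the SLA-1 probe A_72_P196972 is lowest in replicate 2, while A_72_P407238 and A_72_P361238 are lowest in replicate 1, and the SLA-DRB1 probes stay together.

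The overlapping probes printed above, picked from 9 overlapping pairs of member probes, gave a closer view of this replicate pattern. At A_72_P407238 the SLA-1 signal was 0.88 higher in replicate 2 than in replicate 1 in LDM and 0.61 higher in PMM, and at A_72_P361238 it was 0.97 and 0.61 higher. At A_72_P196972, which differs from both at A10T and T38C, it was -0.56 in LDM and -0.56 in PMM. All 3 probes were higher in replicate 3 than in replicate 2, by 0.63 to 0.70 in LDM and by 0.35 to 0.46 in PMM. The order of replicates 1 and 2 was thus opposite at probes that overlap by 53 or 57 bases, with the same sign in both muscles. No genotype of the pigs was used here, and whether the animals differ at these bases was not tested. The SLA-DRB1 pair with the single difference A20G showed no such turn, with replicate 2 above replicate 1 by 1.08 and 1.29 in LDM and by 0.27 and 0.42 in PMM. Of the pairs not printed, A_72_P035616 overlaps A_72_P361238 by 34 bases and had replicate 2 below replicate 1 in both muscles. A_72_P277969 and A_72_P322673, which overlap A_72_P035616, had replicate 2 above replicate 1 in LDM and below it in PMM. In the SLA-DRB1 pair A_72_P187316 and A_72_P379003, replicate 2 was above replicate 1 in both muscles.

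Genes of the antigen presentation pathway beyond the SLA chains were taken from a list of 38 genes, TAP1 and CD74 included, of which 25 had a named probe and 24 were tested. For PMM against LDM, 0 of 24 were called with or without the block. The 3 largest differences were at B2M (given above), at the lysosomal protease LGMN with -0.52 ± 0.43 (SE), and at TAPBP, which ties class I chains to the transporter, with 0.39 ± 0.49. The costimulatory gene CD80 was the one with a probe that never stood well above background. The list's median difference was 0.06.

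Between replicate numbers, 13 of these 24 genes were called, against the 25.1% given above for all probes, and 10 of the 13 were higher in replicate 3 than in replicate 1. The following were chosen after their values were seen. The costimulatory gene CD86 was 4.28-fold higher in replicate 3 than in replicate 1, the immunoproteasome subunits PSMB9 and PSMB8 4.07-fold and 2.71-fold, and the interferon-induced transcription factor IRF1 3.18-fold. The immunoproteasome subunit PSMB10 (1.02-fold) and the proteasome activator subunits PSME1 (1.43-fold) and PSME2 (1.44-fold) were not called. The class II processing enzymes CTSS, a protease, and IFI30, a thiol reductase, were 2.80-fold and 2.46-fold higher. LGMN, TAP1 and CD74 were also among the 10. The kinase JAK2 (-1.18) and the promoter-binding subunit NFYB (-0.77) were lower in replicate 3 than in replicate 1. TAPBP, also called, differed little between these numbers (-0.13) and was lowest in replicate 2 (-1.31 against replicate 1).

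Markers of immune cells moved with the replicate numbers in the same direction as the MHC genes. For 8 macrophage and monocyte genes (CD14, CD163, AIF1, MRC1, LYZ, C1QA, C1QB and C1QC), the summed linear signal, in multiples of the 75th percentile, was 14.0, 34.1 and 66.9 in LDM and 16.9, 32.8 and 55.4 in PMM for replicates 1 to 3. The 7 T cell genes with a probe summed to 1.17, 2.80 and 4.45 in LDM and to 1.49, 2.85 and 5.26 in PMM. PTPRC and LCP1, expressed in all leukocytes, summed to 3.59, 7.95 and 15.6 in LDM and to 4.93, 7.76 and 14.2 in PMM. Replicate 3 was the highest and replicate 1 the lowest array of each list in both muscles, as for class II.

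The replicate numbers were called for 8 of 8 macrophage, 6 of 6 tested T cell and 2 of 2 pan-leukocyte genes, where 25.1% of all probes were called, with replicate 3 above replicate 1 by medians of 1.78, 1.75 and 1.79, beside 1.74 for class II. Endothelial genes (3 of 5 called) had a median of 1.13, and the summed signal of 5 of them was 53.0, 92.1 and 162.3 in LDM and 90.4, 106.3 and 155.9 in PMM. Adipocyte genes (3 of 6 called) summed to 77.5, 237.2 and 230.2 in LDM and to 82.2, 256.0 and 239.8 in PMM, with replicate 1 low and replicates 2 and 3 close. For skeletal muscle genes the median of replicate 3 minus replicate 1 was -0.36 (2 of 11 called). The B cell gene CD79A never stood well above background, the dendritic cell list had XCR1 alone (1.05, adjusted p = 0.061), and no erythrocyte gene had a named probe.

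The part of these cell types in the MHC signal was not tested. For replicates 2 and 3 the slide coincides with the replicate number as well, and these cannot be told apart.

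**Figure D4:**
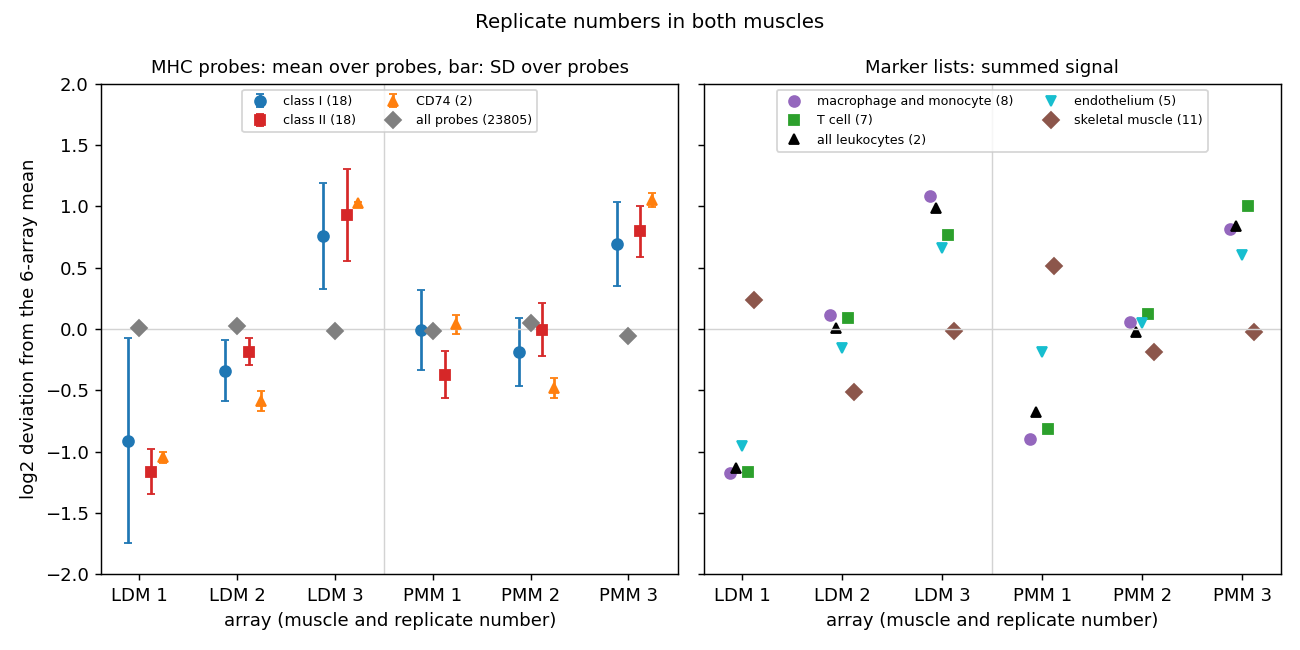
Log2 deviation from the mean over 6 arrays (y axis) by array (x axis). On the left, points are means over the tested probes of class I, class II and CD74, with bars for the SD over probes, and over 23805 probes of the array that were above background on all 6 arrays. On the right, points are the summed linear signals of marker lists, with the number of genes in brackets. Replicate 3 is high for class I, class II, CD74 and the leukocyte lists in both muscles, while the array as a whole stays near 0.

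The patterns most like those of the MHC genes were sought among 4015 named probes that were above background on all arrays. Over the 6 arrays, which are 3 pairs sharing a replicate number and scan day, the genes closest to CD74 at A_72_P395573 were FLT1 (Pearson r = 0.996), TUBB, BCL10, UCP2 and CD3E (r = 0.991). Closest to SLA-1 at A_72_P119087 were SH2D3C (r = 0.995), LDB1, ENG, ATP2A2 and SCARB1 (r = 0.992). With CD74 itself, the 18 class I probes had a median r of 0.95 and the 18 class II probes a median of 0.93, the lowest being 0.53 and 0.08. These values describe 6 arrays and carry no test.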

How the data were processed

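The authors deposited linear Cy3 spot intensities of 6 Agilent pig arrays (3 LDM, 3 PMM), made with Feature Extraction 10.5.1.1 per the file headers, background-subtracted but not normalized between arrays. A deposited value table held the same intensities within 0.005. The RNA protocol in the labels mentions adipose tissue, but the samples were taken as muscle, which is what their titles and the study say. Here, control spots and outlier spots were left out, repeated spots were averaged, and log2 of the intensity minus the 75th percentile of each array was taken. Probes well above background on all 3 arrays of either muscle, with at least 2 values per muscle, entered a two-sided limma test (version 3.58.1, under R 4.3.3). P-values were adjusted by Benjamini-Hochberg over all probes tested, and 0.05 was the threshold. The study names no test, so muscle alone was fitted, with the replicate number as a block as an alternative, and the replicate numbers were tested in a second fit (an F test with muscle in the model).

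Arrays with the same number deviated together (correlations over probes of 0.62, 0.70 and 0.56), so the numbers were taken as pairs. Groups and replicate numbers came from the sample titles, and p-values measure the spread between these arrays. Their number limits the precision: on simulated data, muscle differences of 2 and 3 (log2) were called for 28% and 66% of changed probes without the block. Differences of 1 were called for 0% of changed probes, with or without the block, so differences of the size seen at most members could hardly be called. The changed probes were drawn from all probes tested, while the median member stood at the 90.3 percentile of pooled SD.

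Values are given per array for the brightest tested probe of each listed gene, for members called in the comparison of muscles, and for the 3 probes of each class with the largest difference between muscles or between replicate numbers. Lists used the brightest probe of a gene. Gene names came from RefSeq (Sscrofa11.1, names only), where 28 of 49 members matched by accession, and otherwise from the array design, and probe sequences from the array files. No genome position is given, since probes were not mapped to a genome here. Alternatives were other normalizations, background correction, detection filters, outlier spots, blocks and leaving out each array. The members and lists were chosen with earlier results of these data known.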

Additional observations from a re-analysis of the deposited data

How the results depend on the processing

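No alternative, including the replicate block, called a member or a gene of the antigen presentation list between muscles (0 in each of 16 alternatives). The block changed no call of a member, with an adjusted p of 0.27 for A_72_P184916, while calls over all probes went from 8 to 17, and to 300 with the slide as a random block. Over all probes, calls were 0 with the percentile taken over detected probes, with no filter, with probes detected on all arrays or with outlier spots kept, 1 with normexp and 0 to 1 leaving out an array. The class I median difference ran from -0.11 to 0.73, the class II median from -0.26 to 0.78 and their gap from -0.15 to 0.15 when 1 array was left out. Replicate numbers called 31 members, 0 with normexp (0 over all probes) and 0 to 35 leaving out an array. These left-out arrays, the medians of replicate 3 minus replicate 1 under alternatives and the class I median without the SLA-2 probe were added after seeing the data. Where an array was left out, its lone partner was assumed to vary like the others. With the slide as a random block, differences turned sign at A_72_P039061 (-0.029), A_72_P079096 (-0.031), A_72_P114481 (-0.0025), A_72_P180906 (-0.038), A_72_P246677 (-0.15) and A_72_P270324 (-0.083), and with normexp at A_72_P180906 (-0.0017), A_72_P246677 (-0.020) and A_72_P270324 (-0.052). The cause was not tested. Leaving out an array turned the sign at 14 of 18 probes given by array: A_72_P039061 (-0.33 to 0.76), A_72_P079096 (-0.41 to 0.94), A_72_P110316 (-0.29 to 0.91), A_72_P114481 (-0.10 to 0.40), A_72_P176171 (-0.19 to 0.77), A_72_P180906 (-0.37 to 0.76), A_72_P187316 (-0.31 to 0.85), A_72_P223837 (-0.69 to 0.38), A_72_P244477 (-0.18 to 0.77), A_72_P246677 (-0.56 to 0.76), A_72_P270324 (-0.25 to 0.79), A_72_P299534 (-0.066 to 2.75), A_72_P328748 (-0.24 to 0.90) and A_72_P395573 (-0.059 to 0.997). Over all probes the median of replicate 3 minus replicate 1 was -0.37 with normexp and -0.14 with median centring, against class medians of 1.64 and 2.13, and of 1.18 and 1.64.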
